A study of Mus musculus with 28 samples.

Results

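Tumour necrosis factor (TNF) signals into a cell in part through the products of 8 genes followed here. They are the receptor genes Tnfrsf1a and Tnfrsf1b, the adaptor gene Tradd, the kinase gene Ripk1 and the TAK1 kinase gene Map3k7. The other 3 are the genes of the IkB kinase (IKK) complex, Ikbkb, Chuk and Ikbkg. The rule lists all 8 by name and uses no measured value, although earlier results of these data were known when it was written. All 8 have a row in both expression tables, which together list 13394 gene names. The cells were MC38, an established mouse line called a colon adenocarcinoma line, profiled by 3' mRNA sequencing in 19 libraries. In vitro, 2 libraries each came from untreated cells, from cells given TNF, IFNG (interferon gamma) or TNF + IFNG, and from cells given supernatant of a co-culture. In co-culture, 3 libraries each came from MC38 alone and from MC38 grown with OT1 T cells plus either an isotype control antibody or an antibody against PD1, an inhibitory receptor of T cells. OT1 cells are CD8 T cells with a transgenic receptor for an ovalbumin peptide. Cytokines and T cells acted for 6 h, and no time is recorded for the supernatant. All groups grew in DMEM with fetal calf serum and antibiotics. The sources used here do not say whether the MC38 cells carried ovalbumin or how they were separated from the T cells. The 9 libraries of OT1 cells were not analysed here, so the level of the 8 genes in the T cells is not known from these data.

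TNF binds TNFR1, the product of Tnfrsf1a, which most cells carry, and TNFR2, the product of Tnfrsf1b, which is prominent on lymphocytes and endothelium. TNFR1 recruits TRADD and RIPK1, and ubiquitin chains built on RIPK1 gather TAK1 and IKK, whose subunits IKK-beta (Ikbkb), IKK-alpha (Chuk) and the scaffold NEMO (Ikbkg) release NF-kB from its inhibitor. When this platform is dismantled, RIPK1 and TRADD can instead assemble with FADD and caspase-8 into a complex that kills the cell. In tumour cells TNF is one of the signals by which T cells act on their targets.

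Values are log2 CPM, read counts scaled to a common library total, as deposited. Both cytokine treatments could be read from genes outside the 8. Nfkbia, the NF-kB inhibitor gene that NF-kB itself switches on, rose with TNF (10.5-fold, limma adjusted p = 3.40e-05), and 7 of 18 tested NF-kB output genes passed the test there. Irf1, an interferon-induced transcription factor gene, rose with IFNG (8.32-fold, limma adjusted p = 1.49e-05), where 13 of 15 interferon outputs passed. Irf1 is not particular to IFNG here: with TNF alone it was at 9.44 and 9.60 log2 CPM, against 7.04 and 7.07 untreated. With TNF alone 2 of 15 interferon outputs passed. The supernatant raised 14 of 15 interferon outputs and 0 of 18 NF-kB outputs, by limma at an adjusted p of 0.05 (3 of the 18 had an unadjusted p under 0.05). In co-culture both programmes rose: 16 of 18 NF-kB outputs and 15 of 15 interferon outputs with either antibody.

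Some libraries stood apart from their labels, and this touches every co-culture result. The third library of MC38 alone carried T cell transcripts. Its 20 T cell markers with a row, of 24 listed, summed to 67.3 CPM, against 22.9 and 7.63 CPM in the first and second libraries of MC38 alone. Without Il2, which was at 4.16 log2 CPM in the first library, the sums were 65.2, 5.03 and 5.62 CPM. The libraries with T cells summed to 160.8 to 193.8 CPM with the isotype antibody and 167.4 to 184.2 CPM with anti-PD1. In the first 2 libraries of MC38 alone, Cd8a, which defines CD8 T cells, was at the lowest value of each library, and 12 and 10 of the markers were. Co-culture results are therefore also given without the third library. The third anti-PD1 library is called untreated by its title and treatment field and was placed by its description, and the column of the second isotype library is named for OT2, not OT1. MC38 carried mesenchymal markers (5 of 7 had a row, with Vim at 9.69 to 10.45 log2 CPM in vitro). Of 9 epithelial markers, 1 had a row in vitro, Cdh1, which encodes E-cadherin, at -1.95 to 2.97 log2 CPM, and 5 had one in co-culture. These 5 summed to 33.3 CPM in the first anti-PD1 library, where Cdh1 was at 4.44 and Epcam at 2.36 log2 CPM, against 1.61 to 11.9 CPM in the other co-culture libraries. The deposited tables hold no raw counts. Low values fall on tied steps, as whole reads do, which implies between 3360000 and 11200000 reads for an in vitro library and between 3730000 and 11000000 for a co-culture library. The second TNF + IFNG library and the third library of MC38 alone were the shallowest. The labels do not say that replicates were separate cultures, so a p-value here reflects the spread among libraries and that spread may be technical.

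The 8 genes lie on 6 chromosomes of GRCm38. Tnfrsf1a spans chr6:125349362-125362484 on the plus strand, Tnfrsf1b chr4:145213463-145246870 on the minus strand, Tradd chr8:105258286-105264609 on the minus strand and Ripk1 chr13:34002363-34037147 on the plus strand. Map3k7 spans chr4:31964097-32023467 on the plus strand, Ikbkb chr8:22659212-22706589 on the minus strand, Chuk chr19:44073335-44107480 on the minus strand and Ikbkg chrX:74393290-74453854 on the plus strand. Because the libraries read transcript 3' ends, exon overlap matters mostly there. Ripk1 shares 511 bp of exon with the processed pseudogene Gm17084 on the same strand, 2111 bp from the 3' end of Ripk1, so reads there cannot be told apart. Its overlap with Serpinb6a (241 bp) is at the far end from the 3' end. The overlap of Ikbkg with G6pdx (418 bp) comes no nearer than 25675 bp to the 3' end of Ikbkg. Both are on opposite strands, and the sources used here do not say if reads were counted by strand. The other 6 genes share no exon with another gene in the annotation.

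The promoter sequences below are shown because Tnfrsf1a, Ripk1 and Chuk were the members that passed a test in some comparison, and the pathway they serve ends in NF-kB, which reads kB elements. The 250 bases before each RefSeq start (GRCm38.p6) were searched on both strands for a loose kB pattern (GGG, any 5 bases, CC), and 6 of the 8 genes had such a window, 10 windows in all. The pattern was in 7 of the 10 windows, and in 45.8% of all 32851 windows of that length, so its presence separates little. The match is in capitals, with 10 bases on each side.
Tnfrsf1a, 216 bases before the start, chr6:125349497-125349526, plus strand: aggcttagagGGGTTAGTCCaccggtctaa
Ripk1, second start, 140 bases before the start, chr13:34002724-34002753, plus strand: tcgaggccagGGGCGCCGCCgctagtttcc
Chuk, 66 bases before the start, chr19:44107524-44107553, minus strand: accaatcccaGGGTGATTCCaggagctcgg
Each of these windows held 1 match, and the window of the other Ripk1 start held none. The Tnfrsf1a and Ripk1 stretches lie inside the gene spans given above. Of the 250 bases of each window, 36 (Tnfrsf1a), 171 (Ripk1, second start) and 3 (Chuk) are annotated as untranslated transcript sequence. The core of the interferon-stimulated element (GAAA, any 2 bases, GAAA) was in 1 of the 10 windows, that of Tnfrsf1b. It was on the minus strand of that window, and the pattern is found in 2.98% of all windows. These are matches of letters in a fixed window and not measured binding.

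TNFR1 was by far the more abundant receptor transcript in MC38. A 3' read count does not grow with transcript length, so levels can be set side by side between genes, apart from differences in how well each 3' end is captured. In untreated cells Tnfrsf1a was at 6.54 and 6.42 log2 CPM and Tnfrsf1b at 2.29 in both libraries, a ratio of 19.0 and 17.4. Over all 10 in vitro libraries Tnfrsf1a stood at the 87.5th percentile of all genes and Tnfrsf1b at the 32.3rd. The ratio stayed above 8-fold in every library, from 9.19 to 25.5 in vitro and from 8.12 to 19.6 in co-culture. Below Tnfrsf1a, the order of mean levels in untreated cells was Map3k7 (6.08), Chuk (4.70), Ikbkb (4.57), Ripk1 (4.13), Ikbkg (3.73), Tradd (3.53) and Tnfrsf1b (2.29 log2 CPM). Chuk and Ikbkb overlapped between libraries, as did Ikbkg and Tradd, and the other neighbours did not. Tnfrsf1b had at least 25 distinct lower values in every library, so even the lowest member rested on about that many reads or more.

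Tnfrsf1a, the main TNF receptor gene, was highest in cells given interferon gamma alone or supernatant, and stood near the untreated level when TNF was added to interferon gamma. The libraries read 6.54 and 6.42 log2 CPM untreated, 6.31 and 6.25 with TNF, 6.95 and 7.00 with IFNG, 6.40 and 6.50 with TNF + IFNG, and 7.16 and 7.00 with supernatant. Both IFNG libraries and both supernatant libraries lay above all other in vitro libraries, and both TNF libraries lay below the untreated ones. With 2 libraries per group such separation is common: from the untreated libraries, 42.9% of all genes did not overlap with TNF, 56.2% with IFNG, 59.0% with TNF + IFNG and 32.0% with supernatant. None of these differences of Tnfrsf1a passed the test over all genes. The log2 difference from untreated cells was 0.50 ± 0.13 (SE, 95% interval 0.21 to 0.79, n = 2 per group, limma adjusted p = 0.314) with IFNG. It was 0.60 ± 0.13 (interval 0.31 to 0.89, limma adjusted p = 0.164) with supernatant. With TNF it was -0.20 (interval -0.49 to 0.09) and with both cytokines -0.03 (interval -0.32 to 0.26). Set against IFNG alone, the pair of cytokines gave -0.53 ± 0.13 (limma adjusted p = 0.195), and supernatant against the pair gave 0.63 ± 0.13 (limma adjusted p = 0.104). The interaction, which asks whether both cytokines together differ from the sum of each, was -0.33 (interval -0.73 to 0.08, limma adjusted p = 0.962). Without the second supernatant library, supernatant against the pair passed the test (0.71, limma adjusted p = 0.0433), with 1 supernatant library assumed to vary like the other groups.

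**Figure D1:**
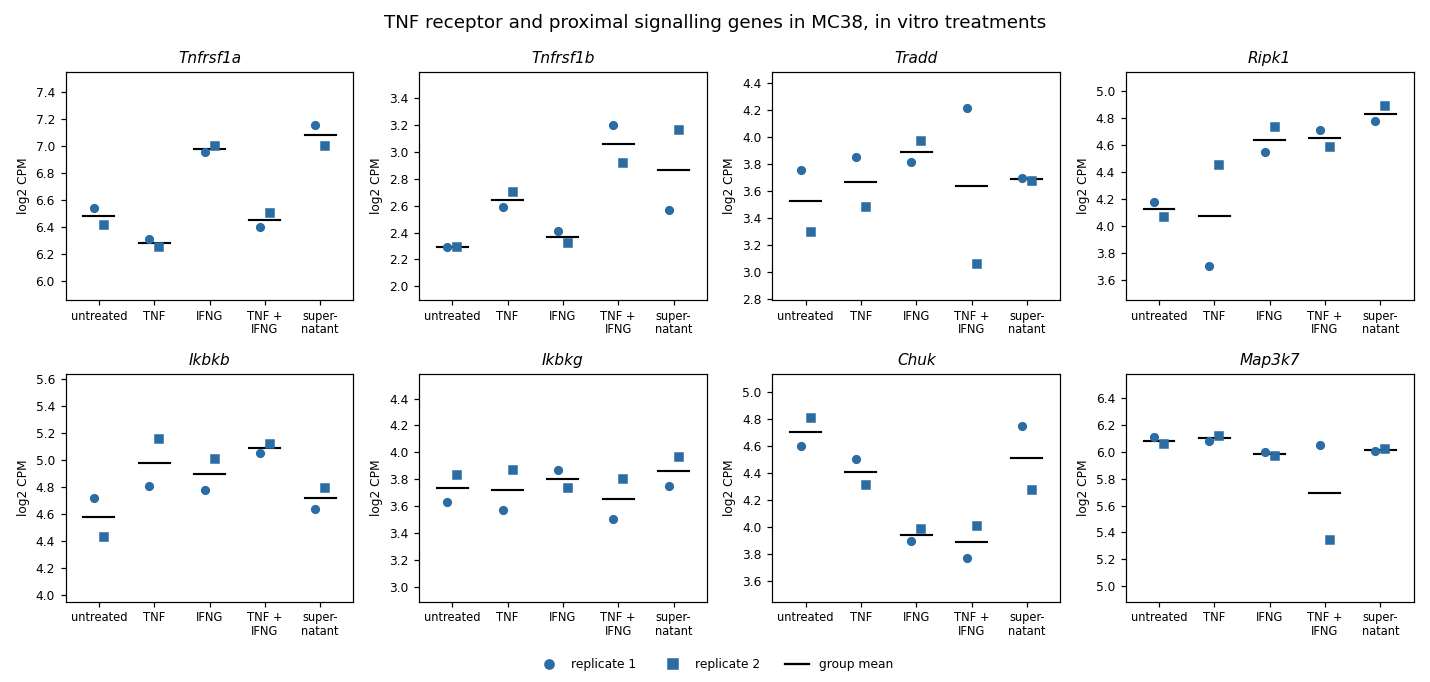
Level of each gene in the 10 in vitro libraries, as log2 CPM on the vertical axis (each panel has its own range but the same height in log2 units), by treatment on the horizontal axis. Points are libraries and bars are means of 2. Tnfrsf1a is highest with IFNG (6.95 and 7.00) and supernatant (7.16 and 7.00), Chuk is lowest with IFNG and TNF + IFNG, and the single low point of Map3k7 (5.34) is the second TNF + IFNG library.

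Tnfrsf1b, the low-abundance receptor, was at 2.59 and 2.70 log2 CPM with TNF, 2.41 and 2.32 with IFNG, 3.20 and 2.92 with both cytokines, and 2.57 and 3.16 with supernatant. All treated libraries lay above the untreated value of 2.29, and both TNF + IFNG libraries lay above those of either cytokine alone. Such separation was common: between TNF + IFNG and IFNG 45.9% of all genes did not overlap, and between TNF + IFNG and TNF 46.0%. From the untreated libraries it was 32.0% (supernatant) to 59.0% (TNF + IFNG) of all genes. The difference with TNF + IFNG was 0.77 ± 0.25 (interval 0.20 to 1.34, limma adjusted p = 0.0841) and did not pass the test. It passed when either supernatant library was left out of the fit (limma adjusted p = 0.0455 and 0.0472). With supernatant the 2 libraries were 0.59 apart, and the difference was 0.57 (interval 0.00052 to 1.15, limma adjusted p = 0.864).

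Ripk1, the kinase at the fork between survival and death signalling, was higher wherever interferon gamma or supernatant was present, without passing the test. It read 4.18 and 4.07 log2 CPM untreated, 3.70 and 4.46 with TNF, 4.55 and 4.73 with IFNG, 4.71 and 4.59 with both, and 4.78 and 4.89 with supernatant. The IFNG, TNF + IFNG and supernatant libraries all lay above the untreated ones, and the TNF libraries spread on either side of them. Over all genes, 56.2%, 59.0% and 32.0% did not overlap in those 3 comparisons with untreated cells. The differences were 0.52 (interval -0.02 to 1.06, limma adjusted p = 0.473) with IFNG, 0.53 (interval -0.01 to 1.06, limma adjusted p = 0.169) with both cytokines, and 0.71 (interval 0.17 to 1.25, limma adjusted p = 0.695) with supernatant. Tradd, the adaptor that couples TNFR1 to RIPK1, ranged from 3.06 to 4.21 log2 CPM, and both ends of that range were TNF + IFNG libraries. Its differences from untreated cells lay between 0.11 and 0.37, and each interval held 0.

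Map3k7, which encodes TAK1, the kinase that activates IKK, hardly varied apart from 1 library. It read 5.97 to 6.12 log2 CPM in 9 of 10 in vitro libraries and 5.34 in the second TNF + IFNG library, the shallowest one. The difference with TNF + IFNG was -0.39 (interval -0.86 to 0.08, limma adjusted p = 0.233). With only that second library standing for the group it was -0.74 (limma adjusted p = 0.0265) against untreated cells and -0.75 (limma adjusted p = 0.0446) against TNF, a value resting on 1 library assumed to vary like the others.

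Among the IKK genes, Chuk was the only member past the test in vitro. It read 4.60 and 4.81 log2 CPM untreated, 4.51 and 4.31 with TNF, 3.89 and 3.98 with IFNG, 3.77 and 4.00 with TNF + IFNG, and 4.75 and 4.28 with supernatant. The 4 libraries given IFNG, alone or with TNF, were the lowest of the 10 and did not overlap the others. From the untreated libraries, 56.2% of all genes did not overlap with IFNG and 59.0% with TNF + IFNG. The share of all genes that set these 4 libraries apart from all others was not counted. With TNF + IFNG Chuk fell by 0.81 ± 0.20 on the log2 scale (0.569 of the untreated level, interval -1.27 to -0.35, limma adjusted p = 0.0448). With IFNG alone the difference was about as large, -0.76 ± 0.20 (interval -1.23 to -0.30), and did not pass (limma adjusted p = 0.337), and the pair against IFNG alone gave -0.05 (interval -0.51 to 0.41). The call with TNF + IFNG sat close to the threshold: it was lost when any 1 of the 8 libraries outside the supernatant group was left out (limma adjusted p = 0.0662 to 0.234). Supernatant gave -0.19 (interval -0.65 to 0.27, limma adjusted p = 0.886), and against TNF + IFNG it gave 0.62 (interval 0.16 to 1.09, limma adjusted p = 0.211).

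Ikbkb, the IKK subunit on which TNF signalling to NF-kB mainly rests, read 4.71 and 4.43 log2 CPM untreated and 5.05 and 5.12 with TNF + IFNG. The groups did not overlap, as was so for 59.0% of all genes in that comparison, and the difference of 0.51 ± 0.18 (interval 0.10 to 0.93) did not pass the test (limma adjusted p = 0.102). With TNF alone it was 0.41 (interval -0.01 to 0.82, limma adjusted p = 0.790). Within a library, Ikbkb minus Chuk was 0.12 and -0.38 untreated and 1.28 and 1.12 with TNF + IFNG. It was 0.30 and 0.84 with TNF alone, 0.88 and 1.03 with IFNG alone, and -0.11 and 0.52 with supernatant. The libraries given either cytokine or both thus lay above both untreated ones, as a description of these libraries. In the co-culture table it was 1.10, 0.58 and 0.69 in MC38 alone, and 0.33 to 0.88 with T cells. Ikbkg, the NEMO scaffold, stayed between 3.51 and 3.97 log2 CPM in all 10 libraries, and its differences from untreated cells ranged from -0.08 to 0.13.

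Counted by limma over all genes, 0 of 8 members passed with TNF, where 0.275% of 12720 genes did and 0 members had an unadjusted p under 0.05. With IFNG 0 of 8 passed (0.354% of all genes, 2 members with an unadjusted p under 0.05), and with supernatant 0 of 8 (0.448% of all genes, 3 members). With TNF + IFNG 1 of 8 passed, Chuk, beside 9.02% of all genes, so the share of members was near the background. That background rests on single libraries: against 1147 genes in all, 121 or 88 passed when replicate 1 or replicate 2 of the untreated cells was left out, 263 or 271 without an IFNG library, 545 or 551 without a TNF library, 314 when replicate 2 of TNF + IFNG was left out, and 2156 or 2165 without a supernatant library. The comparisons between treatments also gave 0 of 8 each: the pair against IFNG (0.236% of all genes, 2 members with an unadjusted p under 0.05), the pair against TNF (0.417%, 2 members), the interaction (0.0157%, 0 members) and supernatant against the pair (0.236%, 2 members). The median difference over the members was 0.0040 with TNF, 0.20 with IFNG, 0.042 with both and 0.15 with supernatant, beside medians over all genes of 0.013, 0.045, 0.017 and 0.015.

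**Figure D2:**
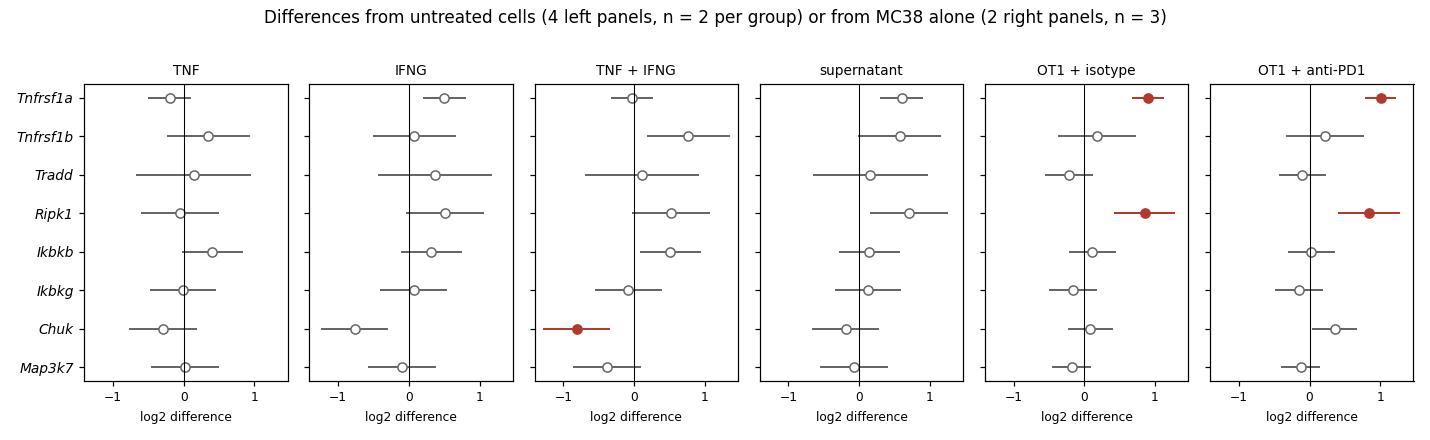
Log2 difference of each gene from untreated cells (4 left panels, 2 libraries per group) or from MC38 alone (2 right panels, 3 per group) on the horizontal axis, with limma's 95% interval. Filled red points passed an adjusted p of 0.05. These are Chuk with TNF + IFNG (-0.81) and Tnfrsf1a and Ripk1 in both co-cultures (0.84 to 1.00). The 4 left panels share the untreated libraries and the 2 right panels share MC38 alone.

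The other genes of the pathway were read from lists. Of 19 adaptors, ubiquitin ligases and editors of the receptor complex, 1 rose with TNF alone: Tnip1, a restraint on NF-kB (2.97-fold, limma adjusted p = 0.0417). With TNF + IFNG 5 of the 19 rose, where 9.02% of all genes passed in either direction, the background for each list below. Tnip1 rose 4.47-fold and Birc3, the cIAP2 ubiquitin ligase that acts on RIPK1, 2.91-fold (limma adjusted p = 0.00238 and 0.0162). Birc2 (cIAP1) rose 2.27-fold, Rnf31, the catalytic subunit of the linear ubiquitin ligase, 2.01-fold, and Tnip2 1.98-fold. Only Tnip1 passed without either untreated library, and without either supernatant library 8 rose. Birc2, Rnf31 and Tnip2 lost their calls without most single libraries, and Birc3 did so without either untreated library or replicate 2 of TNF + IFNG. Of 9 tested genes of the death complex, 0 passed with TNF + IFNG by limma, and 2 had an unadjusted p under 0.05. Of 14 kinases beside and below TAK1 and IKK, 1 fell, Map2k3 (0.635 of the untreated level, limma adjusted p = 0.0461), and the call was lost without any 1 of the libraries outside the supernatant group. Among 10 other receptors of the superfamily, Fas rose 5.59-fold (limma adjusted p = 0.0146), and among 5 ligands and shedding enzymes, Tnfsf10, which encodes TRAIL, rose 12.6-fold (limma adjusted p = 0.0277). The call of Fas was lost without either untreated library, and also without replicate 2 of TNF + IFNG, and that of Tnfsf10 without any 1 untreated, IFNG or TNF + IFNG library. With both cytokines the median log2 difference was 0.34 over the adaptors, 0.28 over the death complex, -0.044 over the kinases, 0.20 over the other receptors and -0.53 over the ligands and shedding enzymes, beside 0.017 over all genes. With IFNG 0 genes of these 5 lists passed by limma, and at an unadjusted p under 0.05 there were 2 adaptors, 0 death complex genes, 2 kinases, 2 receptors and 1 ligand or shedding enzyme. With supernatant 0 passed, and 3 adaptors and 1 ligand or shedding enzyme had an unadjusted p under 0.05.

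In co-culture with OT1 T cells, Tnfrsf1a and Ripk1 rose and the other members did not pass the test. Tnfrsf1a read 6.25, 6.09 and 6.14 log2 CPM in MC38 alone, 7.11, 7.00 and 7.08 with OT1 cells and isotype antibody, and 7.17, 7.18 and 7.15 with OT1 cells and anti-PD1. All 6 libraries with T cells lay above all 3 without. Over all genes, 31.8% did not overlap between MC38 alone and isotype antibody, and 32.9% between MC38 alone and anti-PD1. The rise was 0.90 ± 0.09 on the log2 scale with isotype antibody (1.87-fold, interval 0.69 to 1.11, n = 3 per group, limma adjusted p = 0.000119). With anti-PD1 it was 1.00 ± 0.09 (2.01-fold, interval 0.80 to 1.21, limma adjusted p = 5.93e-05). Without the third library of MC38 alone the values were 0.89 and 0.99 (limma adjusted p = 0.000162 and 8.19e-05). That library, with its T cell transcripts, read 6.14 for Tnfrsf1a, between the other two.

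Ripk1 read 3.80, 3.66 and 4.42 log2 CPM in MC38 alone, 4.85, 4.72 and 4.85 with isotype antibody, and 4.89, 4.79 and 4.72 with anti-PD1. The T cell libraries did not overlap MC38 alone, and the library of MC38 alone with T cell transcripts was the highest of its group. Ripk1 rose by 0.85 ± 0.19 with isotype antibody (1.80-fold, interval 0.43 to 1.27, limma adjusted p = 0.0145) and by 0.84 ± 0.19 with anti-PD1 (1.79-fold, interval 0.42 to 1.26, limma adjusted p = 0.0147). Without the third library of MC38 alone it rose by 1.08 ± 0.12 and 1.07 ± 0.12 (limma adjusted p = 0.000254 and 0.000275). The call with isotype antibody was lost without the first or the third isotype library (limma adjusted p = 0.0570 and 0.0598). The call with anti-PD1 was lost without the first anti-PD1 library, the one with the epithelial markers (0.79, limma adjusted p = 0.0565), or when only the 2 compared groups were fitted (limma adjusted p = 0.0503). T cell markers moved with both groups, and in bulk RNA more cells of a type and more RNA per cell cannot be told apart. The part of T cell RNA in the rise of Ripk1 and Tnfrsf1a was not tested.

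**Figure D3:**
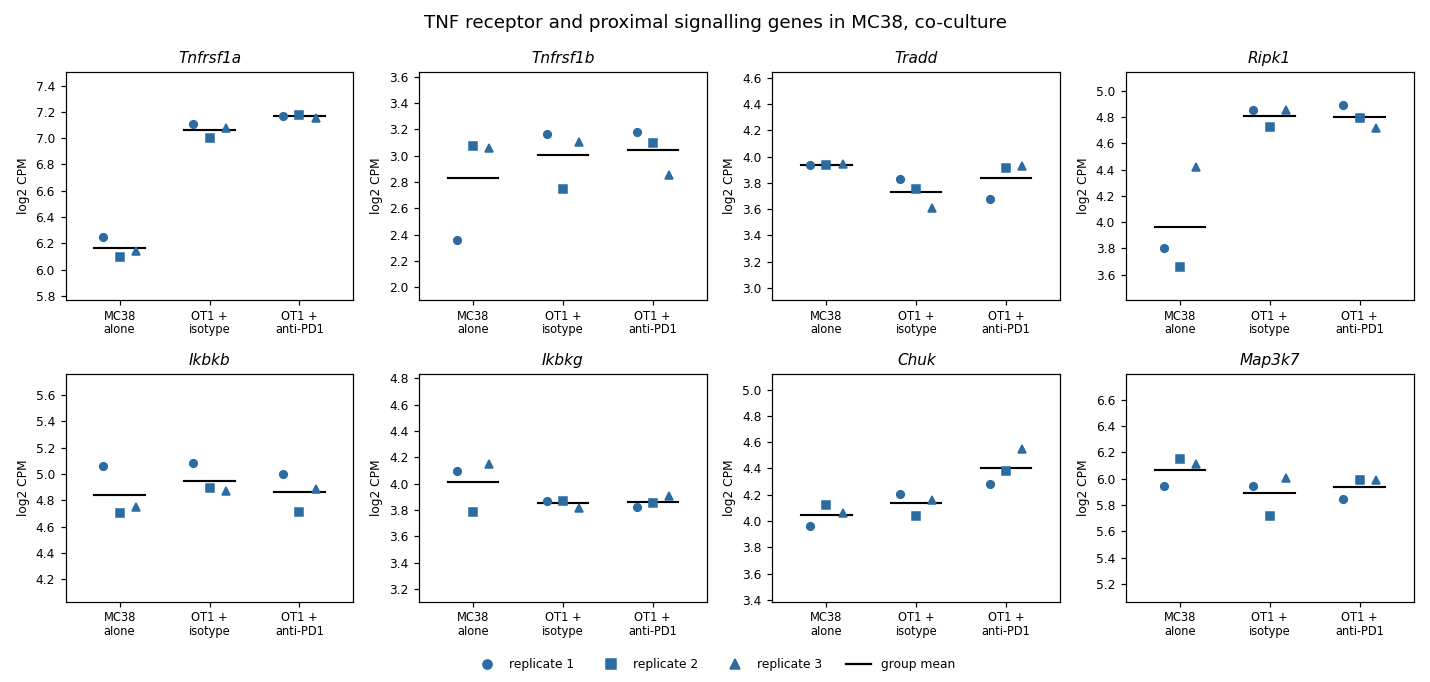
Level of each gene in the 9 co-culture libraries, as log2 CPM on the vertical axis (own range, same height in log2 units in each panel), by culture on the horizontal axis. Points are libraries and bars are means of 3. Tnfrsf1a is separated by the presence of T cells (6.09 to 6.25 without, 7.00 to 7.18 with), and in Ripk1 the third library of MC38 alone (4.42) stands between its group and the T cell libraries.

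**Figure D4:**
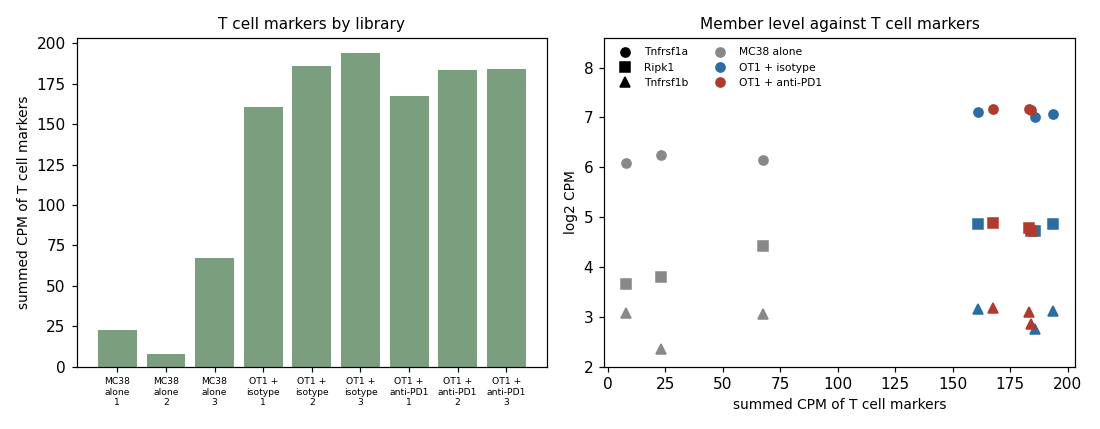
Left, summed CPM of the 20 T cell markers in each co-culture library. Right, log2 CPM of Tnfrsf1a, Ripk1 and Tnfrsf1b (vertical axis) against that sum (horizontal axis), 1 point per library, coloured by culture. The third library of MC38 alone (67.3 CPM) lies between the groups in marker sum and in Ripk1, and within its own group in Tnfrsf1a and Tnfrsf1b. The sum is weighted by Ifng (1.85 log2 CPM in that library, 6.27 to 6.66 with T cells) and does not measure the share of T cell RNA.

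The second receptor did not pass the test. Tnfrsf1b read 2.36, 3.07 and 3.06 log2 CPM in MC38 alone, 3.16, 2.75 and 3.11 with isotype antibody, and 3.18, 3.10 and 2.86 with anti-PD1, and the groups overlapped. Its differences were 0.18 (interval -0.36 to 0.71) and 0.21 (interval -0.32 to 0.75), with limma adjusted p = 0.677 and 0.599. They were 0.29 and 0.33 without the third library of MC38 alone (limma adjusted p = 0.457 and 0.375), and without the first the direction turned.

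Tradd was at 3.93 to 3.94 log2 CPM in MC38 alone and 3.61 to 3.93 with T cells, with differences of -0.21 (interval -0.54 to 0.11) and -0.10 (interval -0.42 to 0.23). Map3k7 ran from 5.94 to 6.15 alone and from 5.71 to 6.00 with T cells, and both intervals held 0. Ikbkb (4.70 to 5.09) and Ikbkg (3.78 to 4.15) overlapped between all groups. Chuk, the member that was lowest with IFNG in vitro, read 3.96, 4.12 and 4.06 alone, 4.20, 4.04 and 4.16 with isotype antibody, and 4.28, 4.38 and 4.55 with anti-PD1. All 3 anti-PD1 libraries lay above all others (11.9% of all genes did not overlap between the antibodies), and the difference from MC38 alone was 0.36 ± 0.14 (interval 0.05 to 0.66, limma adjusted p = 0.108). With isotype antibody it was 0.09 (interval -0.22 to 0.39, limma adjusted p = 0.721). Leaving out the third library of MC38 alone, the differences of Tradd, Map3k7, Ikbkb, Ikbkg and Chuk were -0.21, -0.16, 0.068, -0.088 and 0.094 with isotype antibody. With anti-PD1 they were -0.096, -0.11, -0.018, -0.078 and 0.36, and none of the 5 genes passed with either antibody (limma adjusted p from 0.0898, Chuk with anti-PD1, upwards).

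In all, 2 of 8 members passed the test with isotype antibody, where 13.9% of 12707 genes did (1761), and the same 2 with anti-PD1, where 16.1% did (2050). The same 2 passed without the third library of MC38 alone, with 2218 and 2565 of all genes. The count over all genes fell to 1075 or 1008 with isotype antibody without the first or the third isotype library, and to 1323, 1227 or 1231 with anti-PD1 without the first, the second or the third anti-PD1 library. With so few members, 1 gene separates that count from the background share. The 2 comparisons share the libraries of MC38 alone. The median difference over the members was 0.0998 and 0.12, beside -0.056 and -0.059 over all genes. Between the antibodies 0 of 8 members and 0% of all genes passed by limma, with 0 members and 347 genes at an unadjusted p under 0.05. There the largest differences among members were Chuk, 0.27 (interval -0.03 to 0.58), and Tradd, 0.11 (interval -0.21 to 0.44), and Tnfrsf1a differed by 0.10 (interval -0.10 to 0.31), all with limma adjusted p = 1.00.

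Among the partners in co-culture, 5 of 19 adaptors and editors rose with either antibody. The background for this and the next lists is the 13.9% and 16.1% of all genes that passed in either direction. With isotype antibody Tnip1 rose 5.98-fold, Tnfaip3, the A20 editor of ubiquitin on RIPK1, 5.84-fold, and Birc3 3.27-fold (limma adjusted p = 2.36e-06, 0.00169 and 3.06e-05). Tank rose 1.83-fold and Cyld, a deubiquitinase of the complex, 1.50-fold. With anti-PD1 the values for Tnip1, Tnfaip3 and Birc3 were 5.41-fold, 8.43-fold and 4.57-fold. In MC38 alone Tnfaip3 was near the floor (-1.36 to -0.11 log2 CPM, where the lowest value of the third library was -1.36), so its fold sizes are uncertain. Cyld lost its call with isotype antibody without the first or the third isotype library or either of the first 2 of MC38 alone. The same 5 passed without the third library of MC38 alone, where Tab1 and Ube2n also passed, lower, with anti-PD1.

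Of 9 tested genes of the death complex, 4 rose with either antibody. Among them with isotype antibody were Cflar, the cFLIP inhibitor of caspase-8, which rose 2.22-fold, Bid, a caspase-8 substrate, 2.10-fold, and Mlkl, the effector of necroptosis, 1.86-fold. These 3 genes passed without each single library in turn, and all 4 passed without the third library of MC38 alone. Of 15 kinases, Map2k3 rose 1.87-fold, and Map3k1 and Map3k14, the kinase of the noncanonical pathway, fell to 0.453 and 0.473 of the level in MC38 alone. With anti-PD1 these were 1.99-fold, 0.303 and 0.420. Without the third library of MC38 alone, Map3k8 and Tbk1 also passed, higher, with either antibody, which makes 3 that rose, beside Mapk14, lower, with anti-PD1. With isotype antibody, Map3k1 and Map3k14 both lost their calls without any 1 isotype library.

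Several other members of the receptor superfamily are also T cell genes. Of 12 tested, 7 rose with isotype antibody: Tnfrsf18 18.2-fold, Fas 17.0-fold, Cd40 9.63-fold, Tnfrsf21 2.17-fold, Tnfrsf12a 1.86-fold, Tnfrsf9 1.68-fold and Tnfrsf10b, which encodes the mouse TRAIL receptor, 1.52-fold. With anti-PD1 the same 7 rose. Without any 1 isotype library 4 rose with isotype antibody, and without the third anti-PD1 library 4 rose with anti-PD1. Fas, Cd40 and Tnfrsf21 passed in each of these fits. Without the third library of MC38 alone Tnfrsf12a lost its call with isotype antibody, and the other calls of this list held. Of 7 ligands and shedding enzymes, 3 rose with isotype antibody: Tnfsf10 18.1-fold, Tnf 7.30-fold and Adam17, the protease that sheds TNF and its receptors, 1.72-fold (limma adjusted p = 0.000402, 0.0135 and 0.00585). The same 3 passed with anti-PD1. Tnf lost its call with isotype antibody without the second or the third isotype library. With anti-PD1 it did so without any 1 anti-PD1 library, the second isotype library or either of the first 2 of MC38 alone. With isotype antibody the median log2 difference was 0.12 over the adaptors, 0.28 over the death complex, 0.061 over the kinases, 0.68 over the other receptors and 0.78 over the ligands and shedding enzymes. With anti-PD1 these were 0.18, 0.52, -0.10, 0.61 and 0.80, beside the medians over all genes of -0.056 and -0.059. In the same order, the medians without the third library of MC38 alone were 0.087, 0.34, -0.041, 0.57 and 0.67 with isotype antibody, beside -0.069 over all genes. With anti-PD1 they were 0.22, 0.41, -0.22, 0.51 and 0.72, beside -0.073, and the last list then had 6 tested genes. T cell markers rose beside these lists, 8 of 20 with isotype antibody and 6 of 20 with anti-PD1. Without the third library of MC38 alone, 17 and 16 did, and the lowest counts without another library were 1 and 2. The part of T cell RNA in these counts was not tested.

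The genes most like the 3 members that passed a test were ranked by Pearson's r over the 10 in vitro libraries, among 12705 genes, as a description without a test. All points of a correlation share the same treatments and normalization. For Tnfrsf1a they were Pqlc1 (r = 0.96), Cebpd (0.89) and Ifi204 (0.88), with r over the 9 co-culture libraries of 0.72, 0.33 and 0.96. For Ripk1 they were 1700066B19Rik (0.96), Mndal (0.94) and Selenoh (0.92), with -0.45, 0.92 and 0.57 in co-culture. Ifi204 and Mndal, which encode interferon-inducible proteins of the same family, had high r in both tables. For Chuk they were Rbms1 (0.98), Twist1 (0.97), a mesenchymal transcription factor gene, and Fgfr1 (0.97), with 0.65, 0.57 and 0.44 in co-culture.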

How the data were processed

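Per the labels' protocols, MC38 RNA was column-purified and sequenced from transcript 3' ends (QuantSeq). Tools listed in the submitters' processing notes are HISAT2, featureCounts, Subread, limma, FastQC and cutadapt 1.7, with builds GRCm38 and mm10 and no settings. The deposited values are log2 CPM, read as such from the values: they sum to 993229 to 998505 per library when unlogged and share a maximum within a table, a pattern that quantile normalization gives. Each table was normalized on its own, so tests stayed within a table. Because of that normalization a shift of most transcripts together cannot be seen.

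A single limma 3.58.1 fit per table (R 4.3.3, intensity trend) covered all its groups. Genes needed a log2 value of 0 or more in 2 libraries in vitro or 3 in co-culture, the size of the smallest group; this removed 0 and 239 genes, and 1 and 2 more with 1 value in all libraries were dropped, which left 12720 and 12707. P-values are 2-sided, Benjamini-Hochberg adjusted over all genes tested, with a threshold of 0.05. The fit was tested on simulated data. The 8 members, the gene lists and the rules were chosen with earlier results of these data known. All 8 members are given in every comparison, and list genes past the threshold are named, at most 6 per list by size, with 1 further receptor, and genes that pass only without a library, added after their values were seen. Nfkbia, Irf1, Tnfaip3 and Birc3 are named as checks of exposure. Gene models are GENCODE M21 and promoter windows RefSeq. Alternatives changed the trend, filter, scale, centring, groups fitted, replicate block and each library. Date-like gene names are not named, and 1 list gene that passed is not reported here.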

Additional observations from a re-analysis of the deposited data

How the results depend on the processing

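Across 88 member differences and 1472 alternative values, 1398 kept their direction and side of the threshold, 15 lost the call and 6 gained it. The other 53 changed sign, none of them past the threshold before or after (lowest limma adjusted p = 0.286): 52 without a single library, over 32 member differences in all, and Ripk1 for the pair against IFNG with libraries centred on their median (-0.0037, from 0.0086). Without single libraries, these values ran from -0.091 to 0.37 for Tradd, -0.42 to 0.33 for Ripk1, -0.16 to 0.14 for Ikbkg and -0.011 to 0.046 for Map3k7 with TNF, from -0.031 to 0.17 for Ikbkg with IFNG, from -0.089 to 0.034 for Tnfrsf1a, -0.46 to 0.69 for Tradd and -0.23 to 0.068 for Ikbkg with TNF + IFNG and from -0.072 to 0.39 for Tradd, -0.00046 to 0.28 for Ikbkb and -0.42 to 0.047 for Chuk with supernatant. The pair against IFNG gave -0.83 to 0.32 for Tradd, -0.083 to 0.10 for Ripk1, -0.16 to 0.067 for Chuk and -0.64 to 0.063 for Map3k7. The pair against TNF gave -0.60 to 0.55 for Tradd, -0.066 to 0.28 for Ikbkb and -0.22 to 0.078 for Ikbkg. The interaction gave -0.97 to 0.18 for Tradd, -0.32 to 0.43 for Ripk1, -0.29 to 0.010 for Ikbkg and -0.66 to 0.046 for Map3k7. Supernatant against the pair gave -0.49 to 0.10 for Tnfrsf1b, -0.53 to 0.62 for Tradd and -0.036 to 0.67 for Map3k7. Anti-PD1 against isotype antibody gave -0.092 to 0.13 for Tnfrsf1b, -0.057 to 0.030 for Ripk1, -0.013 to 0.029 for Ikbkg and -0.036 to 0.11 for Map3k7. Against MC38 alone, isotype antibody gave -0.058 to 0.30 for Tnfrsf1b and anti-PD1 -0.022 to 0.33 for Tnfrsf1b and -0.041 to 0.14 for Ikbkb. The count of members past the threshold with TNF + IFNG against untreated cells was 1, and 0 with the replicate block, without the intensity trend and with only the compared groups fitted (Chuk limma adjusted p = 0.0715, 0.0711 and 0.0956), and 0 to 2 as single libraries were left out. With only the compared groups fitted it became 1 for IFNG (Chuk, limma adjusted p = 0.0476) and 1 for anti-PD1 against MC38 alone (Tnfrsf1a only). Leaving out single libraries gave 0 to 1 for TNF + IFNG against TNF and for supernatant against TNF + IFNG, and 1 to 2 for both T cell comparisons with MC38 alone. The cause was not tested. Replicate numbers showed little pairing of the libraries. The deviations of same-numbered libraries from their group means correlated between -0.29 and 0.094 in vitro (20 pairs) and between -0.07 and 0.10 in co-culture (9 pairs). With 2 libraries per group the deviations mirror each other, so each in vitro value occurs for both replicate numbers. The replicate block lowered the calls over all genes with TNF + IFNG from 1147 to 594, for the pair against IFNG from 30 to 19 and for supernatant against the pair from 30 to 16, and with the numbers crossed, an alternative added after the data were seen, that last count was 19 with 0 members. Without the trend 18 genes passed with TNF (35 before), 467 with TNF + IFNG and 1 in the interaction (2 before). With only the compared groups, 61 passed with TNF, 480 with IFNG (45 before), 145 with TNF + IFNG, 37 with supernatant (57 before), 3 for the pair against IFNG, 16 for the pair against TNF (53 before), 4 for supernatant against the pair and 1251 with anti-PD1 (2050 before). Leaving out single libraries gave 11 to 41 genes with TNF, 29 to 50 with IFNG, 46 to 65 with supernatant, 12 to 270 for the pair against IFNG, 37 to 256 for the pair against TNF, 0 to 9 in the interaction, 12 to 486 for supernatant against the pair and 0 to 1 between the antibodies. The median half-width of a 95% interval was 0.59 in vitro and 0.49 in co-culture, before adjustment over all genes. The half-width differs by gene, and a call after adjustment needs a larger difference. Chuk with IFNG, at -0.76, did not pass (limma adjusted p = 0.337).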

Other observations

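The 8 members can also be set beside one another across both tables by how far their libraries spread. In vitro Ripk1 had the widest range over the 10 libraries (1.19 log2 units), followed by Tradd (1.15) and Chuk (1.03), and Ikbkg the narrowest (0.46). In co-culture Ripk1 (1.23) and Tnfrsf1a (1.08) had the widest ranges over the 9 libraries, and Tradd (0.34), Ikbkg (0.37) and Ikbkb (0.38) the narrowest. The range of Tradd in vitro came from the 2 TNF + IFNG libraries, which read 4.21 and 3.06, and without T cells in co-culture its 3 libraries lay within 3.93 and 3.94.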
